A study of Saccharomyces cerevisiae with 45 samples.

Results

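A set of 10 genes of the glycolytic pathway of budding yeast, of 6723 genes counted, was followed from purified spores through germination with and without rapamycin. The genes were taken by name with no threshold on their values, though with earlier results of these data known, and stand for hexose phosphorylation (HXK1, HXK2 and GLK1), phosphofructokinase (PFK1 and PFK2), aldolase (FBA1), glyceraldehyde-3-phosphate dehydrogenase (TDH1 and TDH3), pyruvate kinase (CDC19) and pyruvate decarboxylase (PDC1). All 10 were found in the count table, and all 10 passed the filter on low counts in every comparison described here. RNA was sequenced from 45 libraries, 3 for each of 15 conditions, all from the SK1 strain of Saccharomyces cerevisiae. The conditions were YPD, a rich glucose medium, with 2000 nM rapamycin, collected at once (0 min) or at 10, 30, 60, 120, 240 or 360 min, YPD with the same volume of the solvent DMSO at the same 7 times, and the purified spores that went into both media. The study's methods give its SK1 derivatives as carrying auxotrophic markers in URA3, LEU2, TRP1, HIS3 and LYS2, with LYS2 inserted at HO, in treated and control cells alike. Rapamycin inhibits TORC1, the kinase complex that couples nutrient supply to growth.

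Glycolysis turns glucose into pyruvate, which fermenting yeast pass on through pyruvate decarboxylase and alcohol dehydrogenase to ethanol. For several of its steps the yeast genome holds related genes that encode the same enzyme and are used at different times. Hxk2 is the main hexokinase of cells growing on glucose, while HXK1 and GLK1 are known as genes repressed by glucose. Tdh3 is the most abundant glyceraldehyde-3-phosphate dehydrogenase of growing cells and Tdh1 is known from cells that enter stationary phase. The comparison of such spore and growth isoforms is the question put to these data.

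The libraries held 7736397 to 14522407 counted reads each, with a median of 10942773. Levels are given as CPM, a gene's count relative to the counts of its whole library, scaled so that the bulk of genes has the same level in all libraries. No external RNA standard enters these values, so each is a share of the library's RNA, and in bulk samples fewer cells of a type and less RNA per cell cannot be told apart. The labels were checked against 6 spore markers, whose summed level was 40.2 to 51.5 CPM in DMSO at 360 min and 10137 to 13630 CPM in spores. For 3 growth markers the sum was 1721 to 4998 CPM in rapamycin at 360 min and 6958 to 7444 CPM in DMSO at 360 min. Replicate A of rapamycin at 360 min stood apart from B and C, over all genes and in several members. The main member results at that time are therefore also given without it. Counts over all genes and over further pathway genes include it. The labels name replicates by letter and do not say that they were separate cultures, so the p-values measure only the spread between these samples, which may be technical.

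The related genes are close in sequence, which bears on how well their reads can be told apart. The first 60 coding bases of the 3 glyceraldehyde-3-phosphate dehydrogenase genes are shown because the TDH1 to TDH3 comparison rests on separating their reads. TDH3 held most of the transcripts of this step in spores as well (84.3%, against 4.14% for TDH1). They come from the R64 reference genome of strain S288C (RefSeq), 5′ to 3′ on the coding strand, with capitals at the 7 positions where the 3 genes are not all alike.

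TDH1, chrX:338271-338330, plus strand: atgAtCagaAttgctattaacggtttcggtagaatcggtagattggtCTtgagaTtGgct

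TDH2, chrX:454622-454681, minus strand: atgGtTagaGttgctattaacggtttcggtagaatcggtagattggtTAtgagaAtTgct

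TDH3, chrVII:883751-883810, minus strand: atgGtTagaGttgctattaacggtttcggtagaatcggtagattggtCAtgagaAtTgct

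Over the whole coding sequence TDH1 and TDH3 shared 88.9% of bases and TDH2 and TDH3 shared 95.8%. A stretch of one read length has an identical copy elsewhere in the genome from 4.34% of its possible starts in TDH1 (39 of 899) and 8.12% in TDH3 (73 of 899). The values of both genes can therefore be affected by reads that map to more than 1 place. None of the other 8 members had such a start. Among other pathway genes named below, the share was 12.5% in TDH2, 9.4% in ADH1 and in ADH2, and 2.39% in ENO1 and in ENO2.

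The hexokinase pair is shown in the same way, with capitals at the 5 positions where HXK1 and HXK2 differ, since these genes moved in opposite directions.

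HXK1, chrVI:254990-255049, minus strand: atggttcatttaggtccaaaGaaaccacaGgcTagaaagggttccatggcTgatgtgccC

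HXK2, chrVII:23935-23994, plus strand: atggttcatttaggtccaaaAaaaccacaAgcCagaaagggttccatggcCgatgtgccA

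HXK1 and HXK2 shared 77.8% of their coding bases, and GLK1 shared 61.1% with HXK1 and 60.9% with HXK2. PFK1 and PFK2, the subunits of one enzyme, shared 64.8%.

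Transcripts for the first step of glycolysis changed in make-up. HXK2 encodes hexokinase 2 (YGL253W, chrVII:23935-25395, 1 coding exon). Its levels were 787, 737 and 854 CPM in DMSO at 120 min and 21.5, 22.0 and 26.8 CPM in spores. Every DMSO library lay far above every spore library. This was a 33.6-fold rise, or 5.07 ± 0.12 on the log2 scale (SE), with an adjusted p of 2.29e-12 in edgeR's quasi-likelihood test across all genes. The rise was already there at 10 min, with 267, 186 and 229 CPM in DMSO (log2 fold change 3.27 ± 0.14, adjusted p = 1.95e-08). HXK2 peaked at 1401 CPM ± 169 (SD, n = 3) in DMSO at 240 min, 58.8-fold above spores.

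HXK1 encodes hexokinase 1 (YFR053C, chrVI:253592-255049, 1 coding exon) and fell. It had 4.48, 3.40 and 6.41 CPM in DMSO at 120 min and 222, 245 and 292 CPM in spores. The groups were far apart, with a fold change of 52.1 downward (log2 fold change -5.70 ± 0.17, adjusted p = 7.21e-12). At 360 min in DMSO it had 102, 85.4 and 76.5 CPM, above its own 120 min values and still 2.92-fold under spores (log2 fold change -1.55 ± 0.12, adjusted p = 2.21e-08).

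GLK1 encodes glucokinase (YCL040W, chrIII:50838-52340, 1 coding exon), which phosphorylates glucose but not fructose. In DMSO at 120 min it had 26.9, 18.7 and 21.4 CPM, against 927, 909 and 1189 CPM in spores. No DMSO library came near the spore range, and the fall was 44.9-fold (log2 fold change -5.49 ± 0.17, adjusted p = 7.49e-12). GLK1 was also the member that fell furthest in the first 10 min, by 1.68 ± 0.14 on the log2 scale (adjusted p = 1.48e-06). At 360 min in DMSO it had 49.1, 43.3 and 35.9 CPM, above its own 120 min values but 23.9-fold under spores. Its first 106 bases overlap YCL042W on the same strand, and reads within such an overlap are left out by the counting mode used, so its level can be slightly understated.

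Per kilobase of coding sequence, which allows levels of different genes to be compared, HXK2 made up 1.87% ± 0.0494 of the transcripts of the 3 genes in spores, 34.2% ± 6.36 in DMSO at 10 min, 75.9% ± 2.33 at 60 min and 96.8% ± 0.459 at 120 min (SD, n = 3 each). GLK1 held 77.9% ± 1.00 in spores and HXK1 held 20.2% ± 0.973. At 360 min in DMSO the shares were 89.4% for HXK2, 7.23% for HXK1 and 3.41% for GLK1. The sum of the 3 genes was 860.4 CPM per kb ± 129 in spores, against which DMSO libraries averaged 455 ± 36.8 after 10 min and 256 ± 27.8 after 60 min, the lowest of these values. The sum then was 561 ± 42.0 CPM per kb in DMSO at 120 min, 989 ± 119 at 240 min and 842 ± 55.3 once 360 min had passed.

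**Figure D1:**
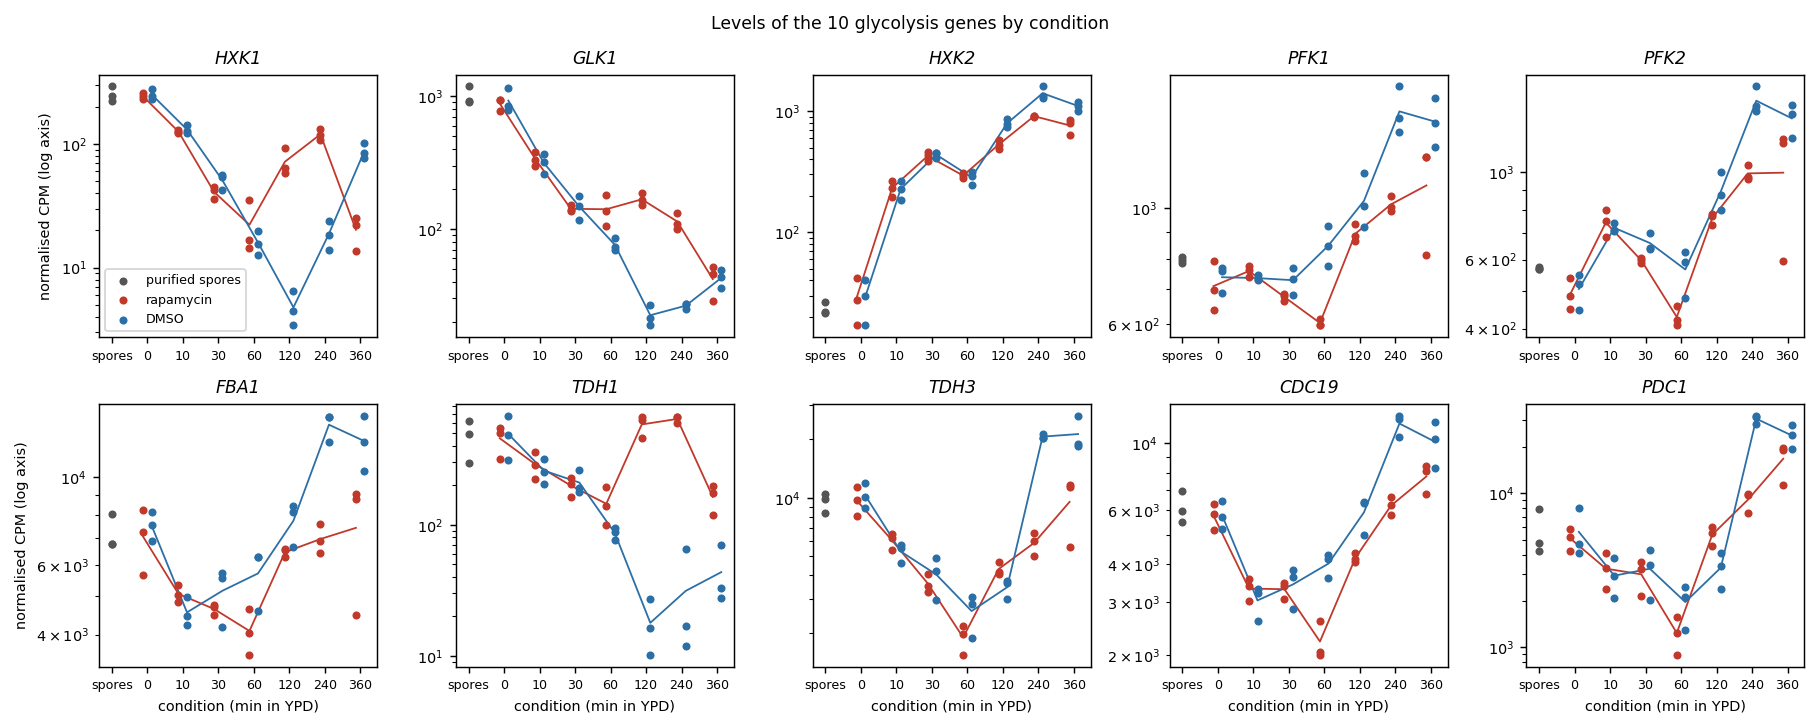
Level of each of the 10 members in CPM (log axis) in spores and at 7 times, which are evenly spaced on the axis, in medium with rapamycin and with DMSO; points are libraries and lines join the means of 3. HXK1, GLK1 and TDH1 fell in DMSO while HXK2 rose, and the first 3 lay higher with rapamycin than with DMSO at 120 and 240 min.

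The middle of the pathway changed little in comparison. PFK1 and PFK2 (YGR240C, chrVII:970771-973734, and YMR205C, chrXIII:671887-674766, 1 coding exon each) encode the alpha and beta subunits of phosphofructokinase, the committed step of glycolysis. PFK2 had 1435, 1479 and 1656 CPM in DMSO at 240 min and 569, 568 and 575 CPM in spores. The ranges did not overlap, and the rise was 2.64-fold (log2 fold change 1.40 ± 0.11, adjusted p = 7.14e-09). PFK1 averaged 1525 CPM in DMSO at 240 min and 796 CPM in spores, a log2 fold change of 0.92 that was under the 2-fold minimum. Over all 15 conditions the mean level of PFK1 spanned only 2.53-fold, the narrowest range of the 10 members, and that of PFK2 spanned 3.56-fold.

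FBA1 (YKL060C, chrXI:326408-327487, 1 coding exon) encodes aldolase, which splits fructose-1,6-bisphosphate, and has no paralogue in the list. It had 12257, 14180.2 and 14188 CPM in DMSO at 240 min and averaged 7200.4 CPM ± 728 in spores. The log2 fold change of 0.89 passed the test on p but not the 2-fold minimum. Its means over the 15 conditions spanned 3.31-fold.

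The dehydrogenase genes differed from each other. TDH1 (YJL052W, chrX:338271-339269, 1 coding exon) had 27.0, 10.2 and 16.4 CPM in DMSO at 120 min and 494, 295 and 620.1 CPM in spores. The DMSO libraries all lay under the spore libraries, and the fall was 25.9-fold (log2 fold change -4.70 ± 0.32, adjusted p = 1.34e-08). At 240 min in DMSO replicate A stood apart, with 65.1 CPM against 11.9 and 16.9 CPM in B and C, and the fall from spores was 15.3-fold (log2 fold change -3.94). Without replicate A it was larger, at -5.06. TDH1 was 10.9-fold below spores at 360 min in DMSO (log2 fold change -3.45 ± 0.32, adjusted p = 1.15e-07).

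TDH3 (YGR192C, chrVII:882812-883810, 1 coding exon), the highest of the 10 members per kilobase in spores, first fell and then rose. In DMSO at 60 min it averaged 2605 CPM ± 627, against 9575 CPM ± 1096 in spores, which was a 3.76-fold fall (log2 fold change -1.91 ± 0.20, adjusted p = 1.95e-06). At 240 min in DMSO the libraries had 20294, 21296 and 20448 CPM, against 8367, 9853 and 10506 CPM in spores. All 3 were above the spore range, 2.13-fold in the fit (log2 fold change 1.09 ± 0.14, adjusted p = 2.08e-06). Without spore replicate A it was 0.94, and with libraries scaled by their size alone 0.81, both under 2-fold. At 360 min the log2 fold change was 1.13 ± 0.22 (adjusted p = 0.000231), and it fell short of 2-fold without replicate B of DMSO at 360 min (0.96) or without spore replicate A (just under 1.00).

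The lower steps also dipped first. CDC19 (YAL038W, chrI:71786-73288, 1 coding exon) encodes the main pyruvate kinase and was at 3034 CPM in DMSO at 10 min and 6145 CPM in spores (log2 fold change -1.02 ± 0.14, adjusted p = 5.07e-05). That fall was at the edge of the 2-fold minimum and missed it without replicate A of DMSO at 10 min or without spore replicate C (-0.91 each), and it was -0.65 with libraries scaled by size alone. CDC19 was at 11595 CPM in DMSO at 240 min, a log2 fold change of 0.90 and so under the 2-fold minimum. PDC1 (YLR044C, chrXII:232390-234081, 1 coding exon) encodes the main pyruvate decarboxylase, which commits pyruvate to ethanol. Its levels were 28106, 31229 and 31788 CPM in DMSO at 240 min and 4203, 4722 and 7848 CPM in spores. The lowest DMSO library was above the highest spore library, and the rise was 5.37-fold (log2 fold change 2.42 ± 0.21, adjusted p = 3.17e-08). Before that PDC1 fell 2.9-fold, to 1969 CPM in DMSO at 60 min.

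Counted over the 10 members, 3 passed the test (adjusted p under 0.05 and at least 2-fold) in DMSO at 10 min against spores, beside 22.8% of all genes tested (15.4% higher and 7.37% lower). These were HXK2, which rose, and GLK1 and CDC19, which fell. The count was 5 without replicate C of DMSO at 10 min, without spore replicate A or without spore replicate B, and 2 without replicate A of DMSO at 10 min or spore replicate C. The count was 5 at 30 min (1 higher, 4 lower), beside 44.3% of all genes (24.3% higher, 20% lower). At 60 min it was 6 (1 higher, 5 lower), beside 55.3% (28.5% higher, 26.8% lower), and at 120 min 5 (1 higher, 4 lower), beside 61.8% (31% higher, 30.8% lower). At 240 min it was 7 (4 higher, 3 lower), beside 60% (30.1% higher, 29.9% lower), and at 360 min also 7 (4 higher, 3 lower), beside 58% (29.4% higher, 28.6% lower). With libraries scaled by size alone the share of all-gene calls that were higher was 92.0% at 10 min, 68.1% at 30 min and 39.1% at 120 min, against 67.6%, 54.9% and 50.1% in the TMM scaling. The members thus changed about as often as other genes did. Their median log2 fold change was -1.09 at 60 min and 0.91 at 240 min in DMSO. The median of all genes lay within 0.06 of 0, where the TMM scaling itself places it. With libraries scaled by size alone the all-gene median was -0.20 at 60 min and -0.29 at 240 min. At 0 min in DMSO no member passed, none had an unadjusted p under 0.05, DESeq2 called none, and 0% of all genes tested were called.

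The 10 members together took up 3.08% of all counted reads in spores (SD 0.360), 1.36% (SD 0.214) in DMSO at 60 min, 1.70% (SD 0.167) at 120 min and 6.41% (SD 0.145) at 240 min. The range was 6.31% to 6.57% at 240 min in DMSO and 2.77% to 3.48% in spores, with no overlap. Per kilobase, the order in spores was TDH3 at 9585, FBA1 at 6667, CDC19 at 4089, PDC1 at 3304, GLK1 at 671, TDH1 at 470.3, PFK1 at 269, PFK2 at 198, HXK1 at 174 and HXK2 at 16.1 CPM per kb. HXK2, last in spores, was below only TDH3, PDC1, FBA1 and CDC19 in DMSO at 360 min with 753 CPM per kb, and GLK1 was last there with 28.4 CPM per kb.

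Relative levels of related genes were then compared within each library, as the log2 ratio of reads per kilobase, which does not depend on how libraries are scaled. The HXK1 to HXK2 ratio was -7.46, -7.75 and -7.05 in DMSO at 120 min and 3.37, 3.48 and 3.45 in spores. Replicates lay within 0.70 of each other, and the mean difference between the groups was -10.85. An exact two-sided permutation test of 3 against 3 cannot go below a p of 0.1, and this comparison had that p of 0.1. Over all 154 ratio comparisons of 11 pairs the smallest p was therefore 0.1, and the smallest after adjustment over these comparisons was 0.186.

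The TDH1 to TDH3 ratio behaved differently in time. It was -4.89 in DMSO at 60 min and -4.41 ± 0.57 in spores, overlapping groups that differed by -0.48 (exact p = 0.4); both genes had fallen by then. At 120 min in DMSO the libraries had -6.79, -8.48 and -7.83, against -4.08, -5.06 and -4.08 in spores. These groups did not overlap, with a mean difference of -3.29 (exact p = 0.1). At 360 min the mean was -9.04 ± 0.88, so that TDH3 reads per kilobase exceeded those of TDH1 by 528-fold, against 21.2-fold in spores.

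PFK1 and PFK2, whose products form one complex, kept near-equal levels. The mean ratio over the 15 conditions ran from -0.04 to 0.55. In DMSO at 240 min against spores it differed by -0.48 without overlap (exact p = 0.1).

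**Figure D2:**
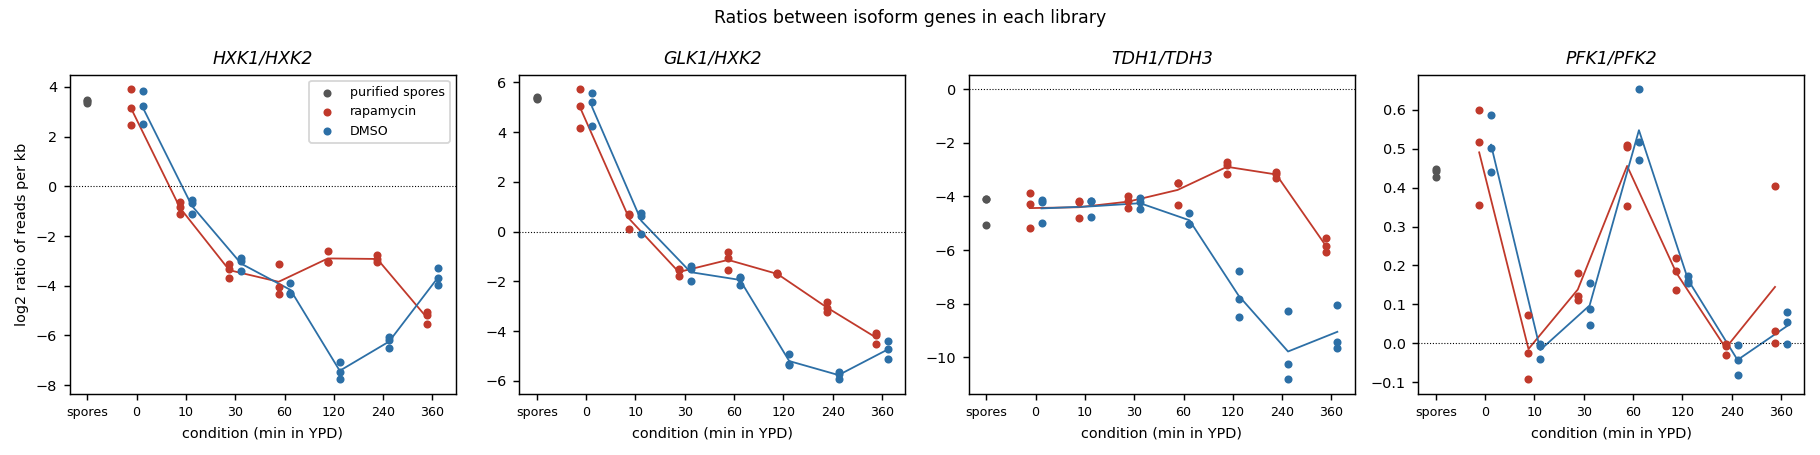
Log2 ratio of reads per kilobase between related genes within each library, in spores and at 7 evenly spaced times with rapamycin and with DMSO; points are libraries and lines join means of 3. HXK1 to HXK2 lay near 3.43 in spores and at -7.42 in DMSO at 120 min, against -2.90 with rapamycin, while the means of PFK1 to PFK2 stayed between -0.04 and 0.55.

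The same comparison was extended to the other genes of these steps. ENO1 and ENO2 encode the enolases, and ENO1 held 69.8% ± 1.45 of their transcripts per kilobase in spores and 6.67% ± 1.28 in DMSO at 120 min. PDC6, a minor pyruvate decarboxylase, had 63.2, 39.9 and 39.8 CPM in DMSO at 120 min and 4141, 4342 and 5065 CPM in spores. It fell 94.7-fold by 120 min and 240-fold by 360 min. It held 45.5% ± 5.56 of the pyruvate decarboxylase transcripts in spores, beside 54.3% for PDC1, and 0.0809% ± 0.00539 in DMSO at 360 min. CDC19 by contrast held 97.6% or more of pyruvate kinase transcripts in every condition, and TDH3 held 66.3% to 84.7% of those of its step.

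**Figure D3:**
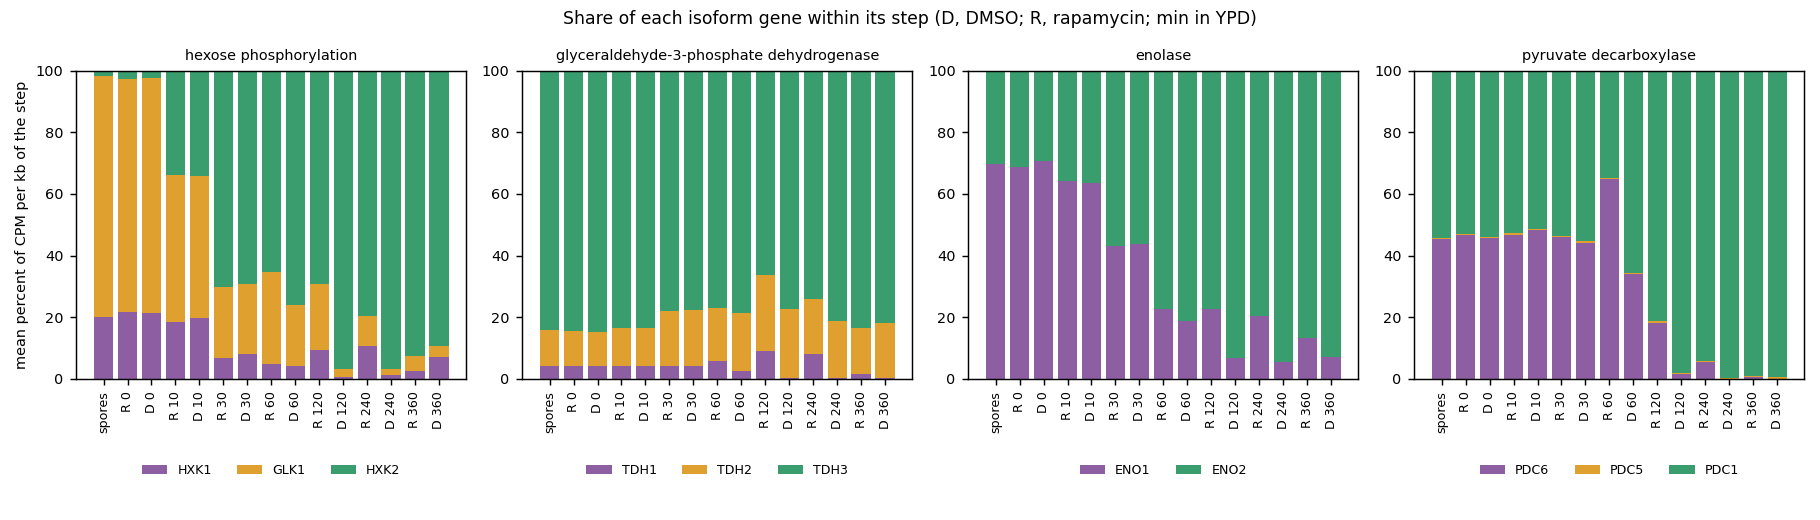
Share in percent of the transcripts per kilobase of each step held by each gene that encodes it, as stacked bars for the mean of 3 libraries per condition. HXK2 held 96.8% of its step in DMSO at 120 min and 1.87% in spores, and PDC6 held 1.56% in DMSO at 120 min and 45.5% in spores.

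Rapamycin left the members close to DMSO at first. No member passed the test with rapamycin against DMSO at 0, 10, 30 or 60 min, beside 0%, 0%, 0.0172% and 19.2% of all genes tested, the last split into 10.4% higher and 8.82% lower. An unadjusted p under 0.05 was reached by 0, 0, 1 and 5 members at these times, and DESeq2 called 0 at each. The 5 members at 60 min also had an adjusted p under 0.05 in edgeR's test and missed only the 2-fold minimum. At 60 min GLK1 had 136, 105 and 181 CPM with rapamycin and 69.5, 85.4 and 73.3 CPM with DMSO. The ranges did not overlap, but the log2 difference of 0.93 ± 0.19 (adjusted p = 0.00291) was under the 2-fold minimum. Without replicate B of rapamycin at 60 min it was 1.11 and passed, and without replicate B of DMSO at 60 min it was 1.02 and passed. With libraries scaled by size alone GLK1 (1.26) and TDH1 (1.11) passed. In the TMM scaling TDH1 differed by 0.78 ± 0.21 (adjusted p = 0.013) and CDC19 by -0.81 ± 0.17 (adjusted p = 0.00432).

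At 120 min 3 members passed, all higher with rapamycin, beside 36.9% of all genes tested (21.3% higher, 15.6% lower). Of all genes called at 60, 120 and 240 min, 54.2%, 57.8% and 64.8% were higher with rapamycin, and with libraries scaled by size alone 80.7%, 80.1% and 82.5%. The 3 members were those that had fallen furthest in DMSO. Both comparisons use the same 3 DMSO libraries, so low values there enter both, and this overlap is only a description. TDH1 had 629, 456 and 663 CPM with rapamycin and 27.0, 10.2 and 16.4 CPM with DMSO. Every rapamycin library was above every DMSO library, by 32.5-fold in the fit (log2 fold change 5.02 ± 0.27, adjusted p = 2.51e-08). HXK1 had 63.7, 58.5 and 93.7 CPM with rapamycin and 4.48, 3.40 and 6.41 CPM with DMSO. That was 15-fold higher (log2 fold change 3.90 ± 0.24, adjusted p = 7.68e-08), with no overlap. GLK1 had 164, 152 and 186 CPM with rapamycin and 26.9, 18.7 and 21.4 CPM with DMSO, 7.53-fold higher (log2 fold change 2.91 ± 0.12, adjusted p = 5.94e-09).

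These levels were not those of spores for the hexose kinases. Against spores at 120 min, rapamycin libraries had log2 fold changes of -1.83 for HXK1, -2.60 for GLK1 and 4.48 for HXK2. TDH1 was at a level not distinguished from that of spores, with a log2 fold change of 0.30 ± 0.22 (adjusted p = 0.228) at 120 min and 0.43 ± 0.20 (adjusted p = 0.0594) at 240 min. HXK2 was still high with rapamycin, with 524, 487 and 573 CPM, against 787, 737 and 854 CPM with DMSO at 120 min. The groups were apart, but the log2 difference of -0.57 ± 0.09 (adjusted p = 9.78e-05) was under 2-fold. With rapamycin against spores, 4 members passed at 120 min, beside 45.7% of all genes tested. At 0 min none passed, beside 0.0522%, with 1 at an unadjusted p under 0.05 and 0 called by DESeq2. The counts at 10, 30, 60, 240 and 360 min were 3, 5, 7, 3 and 5, beside 22.9%, 43.7%, 43.3%, 54.2% and 54.6%. The count at 360 min was 6 without replicate A of rapamycin, when PFK2 also passed (1.06).

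Marker sums also differed between the treatments. The summed level of the 6 spore markers was 343 to 783 CPM with rapamycin and 125 to 209 CPM with DMSO at 120 min, and that of the 3 growth markers was 2585 to 2925 CPM with rapamycin and 10251 to 11175 CPM with DMSO. Singly, 5 of the 6 spore markers were tested at 120 min, and 1 was called higher and 0 lower with rapamycin. Their median log2 fold change was 0.24. Of the 3 growth markers 2 were tested, and 2 were called lower. Of all genes tested 21.3% were higher and 15.6% lower. None of these markers was at 0 in all libraries of a group. Their part in the differences between treatments was not tested.

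At 240 min 6 members passed, 3 higher and 3 lower with rapamycin, beside 21.8% of all genes tested (14.1% higher, 7.68% lower). TDH1 was 19.8-fold higher, with 594, 665 and 665 CPM with rapamycin and 65.1, 11.9 and 16.9 CPM with DMSO (log2 fold change 4.31 ± 0.44, adjusted p = 1.34e-06). Without replicate A of DMSO, which stood apart, the log2 fold change was 5.46. HXK1 was 6.24-fold and GLK1 4.16-fold higher. The 3 that were lower, TDH3, PDC1 and FBA1, are known as highly expressed genes of cells growing on glucose. TDH3 had 5009, 6550.4 and 5999 CPM with rapamycin and 20294, 21296 and 20448 CPM with DMSO. The groups were far apart, 3.67-fold in the fit (log2 fold change -1.87 ± 0.12, adjusted p = 2.02e-08).

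PDC1 had 7428, 9924 and 9784 CPM with rapamycin and 28106, 31229 and 31788 CPM with DMSO at 240 min, a 3.48-fold lower level without overlap (log2 fold change -1.80 ± 0.14, adjusted p = 7.68e-08). FBA1 had 6419, 7591 and 6899 CPM with rapamycin and 12257, 14180.2 and 14188 CPM with DMSO. It was lower by 2.02-fold (log2 fold change -1.01 ± 0.11, adjusted p = 2.85e-06), close to the minimum. The call was lost without rapamycin replicate A (-0.95) or C (a hair under 2-fold), without DMSO replicate B (-0.99) or C (-0.97), and with libraries scaled by size alone (-0.78). The other 4 members had log2 fold changes of -0.95 to -0.64 and did not reach 2-fold, though CDC19 did without replicate A of DMSO at 240 min (-1.01).

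**Figure D4:**
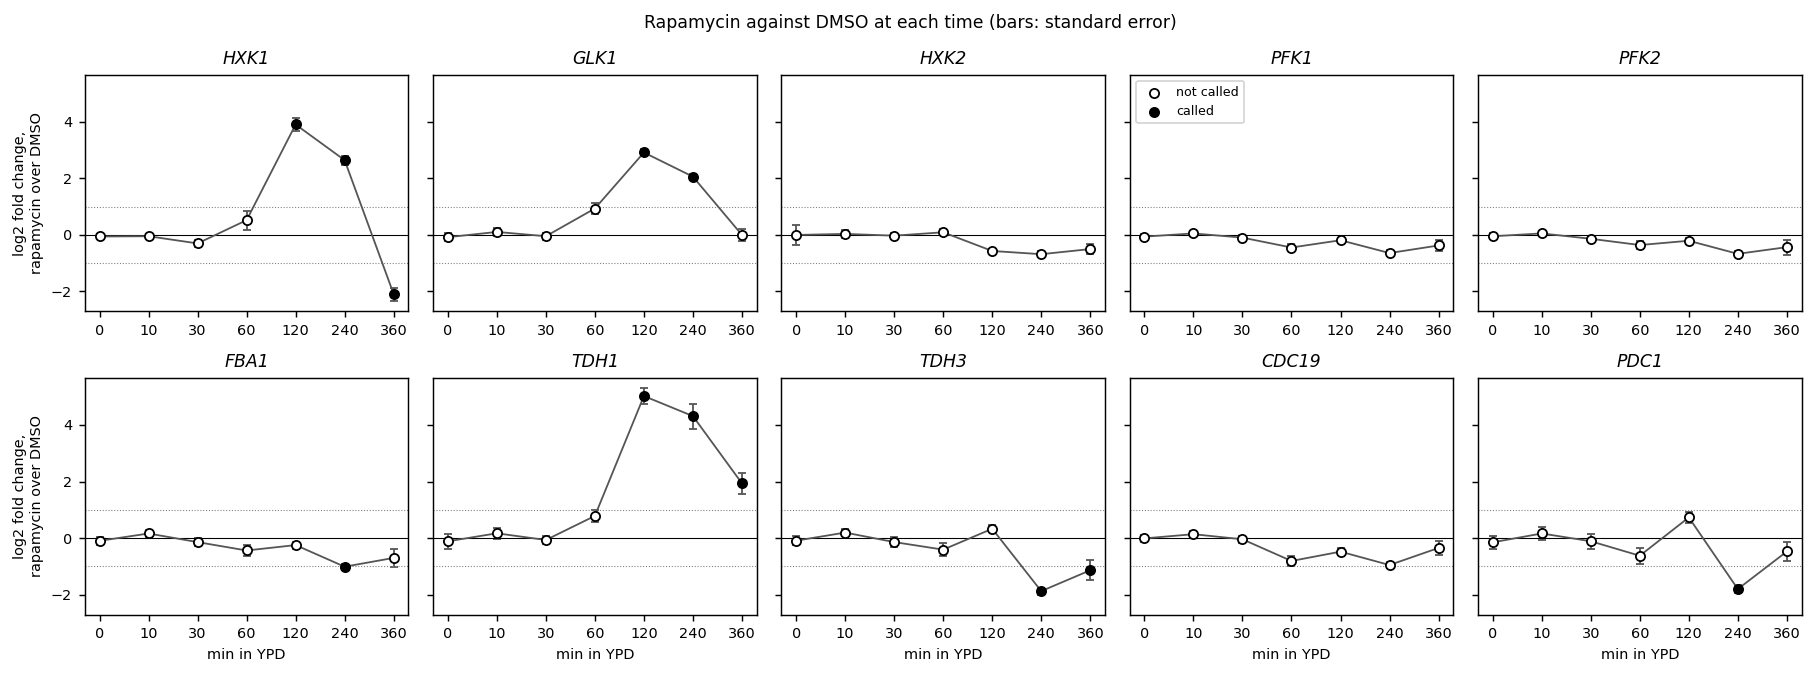
Log2 fold change of rapamycin over DMSO for each of the 10 members at each of 7 times, with error bars of 1 SE from the fit on 6 libraries. TDH1, HXK1 and GLK1 stand highest at 120 min (5.02, 3.90 and 2.91), and HXK1 is at -2.09 at 360 min.

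At 360 min 3 members passed, 1 higher and 2 lower with rapamycin, beside 15.7% of all genes tested (10.4% higher, 5.3% lower). HXK1 had 13.6, 22.1 and 25.1 CPM with rapamycin and 102, 85.4 and 76.5 CPM with DMSO. It was thus 4.26-fold lower (log2 fold change -2.09 ± 0.23, adjusted p = 0.000375), where it had been higher at 120 and 240 min. TDH1 had 118, 174 and 198 CPM with rapamycin and 70.3, 32.9 and 27.4 CPM with DMSO, 3.82-fold higher without overlap (log2 fold change 1.93 ± 0.37, adjusted p = 0.00484). GLK1 no longer differed detectably, with a log2 fold change of -0.00 ± 0.22 (adjusted p = 0.996).

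TDH3 at 360 min had 5552, 11672 and 11356 CPM with rapamycin and 18410.2, 26519 and 19017 CPM with DMSO. The groups did not overlap, and replicate A of rapamycin lay far below B and C. Its log2 fold change of -1.14 ± 0.36 (adjusted p = 0.0357) passed only with all 6 libraries. Leaving out any one of them gave -1.29 to -0.87, with adjusted p from 0.00383 to 0.124, and the call was lost each time. The calls of HXK1 and TDH1 held without any one library, and without replicate A of rapamycin their log2 fold changes were -1.88 and 2.12.

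Whether the rapamycin effect itself changed with time was tested as an interaction over 12 libraries. From 120 to 360 min the effect changed in 5 of 10 members, beside 34.8% of all genes tested. It changed by -6.02 ± 0.37 for HXK1 (adjusted p = 1.12e-07), -3.12 ± 0.52 for TDH1 (adjusted p = 0.000226), -2.94 ± 0.28 for GLK1 (adjusted p = 2.76e-06), -1.48 ± 0.38 for TDH3 (adjusted p = 0.0043) and -1.22 ± 0.38 for PDC1 (adjusted p = 0.0136), all on the log2 scale. Without replicate A of rapamycin at 360 min these 5 still passed, with -5.90 for HXK1, -3.03 for TDH1, -2.83 for GLK1, -1.31 for TDH3 and -1.11 for PDC1. From 30 to 60 min no member passed, beside 17.7% of all genes tested. At an unadjusted p under 0.05 there were 4, and DESeq2 called 0. These 4 also had an adjusted p under 0.05 and missed only the 2-fold minimum.

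Within libraries the isoform ratios showed the same contrasts. The HXK1 to HXK2 ratio was -3.04, -3.05 and -2.61 with rapamycin and -7.46, -7.75 and -7.05 with DMSO at 120 min, a mean difference of 4.52 (exact p = 0.1). At 360 min it was -5.56, -5.18 and -5.07 with rapamycin and -3.29, -3.69 and -3.97 with DMSO, a mean difference of -1.62 in the other direction (exact p = 0.1), or -1.47 without replicate A of rapamycin. The TDH1 to TDH3 ratio was higher with rapamycin at all 3 of these later times, by 4.81 (120 min), 6.59 (240 min) and 3.22 (360 min, 3.09 without replicate A of rapamycin), each without overlap. Its 3 values at 120 min with rapamycin, -2.72, -3.15 and -2.82, were above those of spores, -4.08, -5.06 and -4.08. PFK1 to PFK2 overlapped between treatments at every time.

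As shares of their step, HXK2 held 69.3% ± 1.47 with rapamycin and 96.8% ± 0.459 with DMSO at 120 min. ENO1 held 22.5% ± 2.17 of enolase transcripts with rapamycin and 6.67% ± 1.28 with DMSO at that time. PDC6 differed already at 60 min, with 72.0%, 57.7% and 64.6% of pyruvate decarboxylase transcripts with rapamycin and a mean of 34.0% ± 8.95 with DMSO. Its share in spores was 49.5%, 47.8% and 39.1%, so every rapamycin library at 60 min was above the spore range.

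The members were set beside 21 further genes of the pathway, a list that holds the remaining enzymes, their paralogues and the enzymes that make or remove fructose-2,6-bisphosphate, the activator of phosphofructokinase. In DMSO against spores, 2 of 21 passed as higher and 15 as lower at 60 min, beside 28.5% and 26.8% of all genes. At 360 min 9 were higher and 9 lower, beside 29.4% and 28.6% of all genes. Those that rose by 360 min were ADH1, ENO2, GPM1, GPM3, PDC5, PFK27, PGK1, TDH2 and TPI1. PFK27, a kinase that makes the activator, rose most among them, by 3.76 on the log2 scale at 360 min and by 5.43 at 120 min, with 593 CPM in DMSO at 120 min and 13.7 CPM in spores. PFK26, which encodes a kinase of the same activity, fell by 3.62 at 360 min, and PYK2, the second pyruvate kinase, fell by 2.62.

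With rapamycin against DMSO, 5 of the 21 passed as higher and 0 as lower at 60 min, beside 10.4% and 8.82% of all genes. At 120 min 11 were higher and 0 lower, beside 21.3% and 15.6% of all genes. The median log2 fold change of the 21 was 1.02 at 120 min. PDC6 was higher by 4.67, with 1079.5, 1123 and 1407 CPM with rapamycin and 63.2, 39.9 and 39.8 CPM with DMSO. GPM2, a paralogue of the phosphoglycerate mutase gene GPM1, was higher by 3.58, with 72.9, 64.7 and 84.2 CPM with rapamycin and 7.61, 4.26 and 6.52 CPM with DMSO. PYK2 was higher by 3.07 and PFK26 by 3.05. In each of these genes the treatments did not overlap.

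At 240 min 7 of the 21 were higher and 8 lower with rapamycin, beside 14.1% and 7.68% of all genes. The 8 were PGK1 at -2.05, ENO2 at -2.09, GPM1 at -1.90, TDH2 at -1.85, TPI1 at -1.46, PDC5 at -1.23, ADH1 at -1.17 and ADH2 at -1.16 on the log2 scale. PGK1, ENO2, GPM1, TPI1 and ADH1 encode the main enzymes of their steps in growing cells, and all 8 moved in the direction of TDH3, PDC1 and FBA1. ADH1 and ADH2 both hold read-length stretches with a copy elsewhere in the genome. Their log2 ratio (ADH2 to ADH1) at 240 min was -5.45 with rapamycin and -5.46 with DMSO. Whether the ADH2 value is independent of ADH1 reads was not tested. At 360 min 6 were higher and 5 lower, beside 10.4% and 5.3% of all genes.

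**Figure D5:**
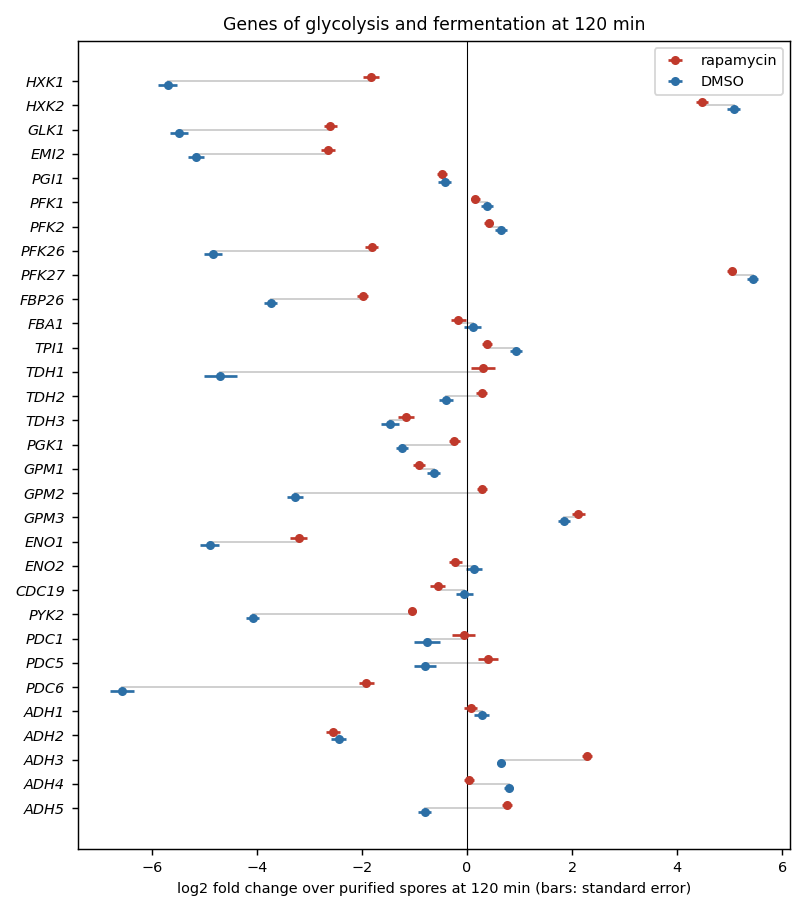
Log2 fold change over purified spores at 120 min, with rapamycin and with DMSO, for the 10 members and 21 further genes of the pathway. Genes are ordered by step, and error bars are 1 SE. HXK1, GLK1 and TDH1 lie further to the left with DMSO than with rapamycin, and HXK2 lies above spores with both. With DMSO, 1 of the 10 members was called higher than spores and 4 lower. Of the 21 further genes 2 were called higher and 9 lower, beside 31% and 30.8% of all genes tested.

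Of 4 genes for regulators of glycolytic transcription, GCR1, GCR2, RAP1 and TYE7, each passed at some time in DMSO against spores. At each single time from 10 to 360 min, 22.8% to 61.8% of all genes tested passed, so passing at some time does not set these genes apart. TYE7 was higher at 10 min (log2 fold change 1.74) and 120 min (1.65), and GCR1 was lower at 60 min (-1.53). GCR2 was lower at 30, 240 and 360 min (-1.23, -1.36 and -1.73), and RAP1 at 10, 240 and 360 min (-1.15, -1.46 and -1.03). With rapamycin against DMSO, RAP1 alone passed at 120 min, with a log2 fold change of -1.24, beside 36.9% of all genes tested.

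Upstream sequence is shown for the 3 members that fell in DMSO and were higher with rapamycin at 120 min. The capitals mark AGGGG or its reverse complement CCCCT, the core of the stress response element bound by the transcription factors Msn2 and Msn4. Sequences run 5′ to 3′ toward the gene in the R64 build.

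HXK1, from 500 to 251 bases before the start codon, chrVI:255300-255549, minus strand: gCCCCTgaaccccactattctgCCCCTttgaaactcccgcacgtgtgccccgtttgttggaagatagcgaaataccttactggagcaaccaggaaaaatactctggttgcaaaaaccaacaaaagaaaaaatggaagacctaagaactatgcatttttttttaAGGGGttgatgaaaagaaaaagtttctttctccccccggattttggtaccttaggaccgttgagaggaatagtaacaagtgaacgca

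GLK1, the 250 bases before the start codon, chrIII:50588-50837, plus strand: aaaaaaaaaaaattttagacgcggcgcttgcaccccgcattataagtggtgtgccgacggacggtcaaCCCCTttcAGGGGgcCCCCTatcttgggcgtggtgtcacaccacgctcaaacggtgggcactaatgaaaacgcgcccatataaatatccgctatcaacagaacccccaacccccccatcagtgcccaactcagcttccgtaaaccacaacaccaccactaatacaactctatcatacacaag

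TDH1, the 250 bases before the start codon, chrX:338021-338270, plus strand: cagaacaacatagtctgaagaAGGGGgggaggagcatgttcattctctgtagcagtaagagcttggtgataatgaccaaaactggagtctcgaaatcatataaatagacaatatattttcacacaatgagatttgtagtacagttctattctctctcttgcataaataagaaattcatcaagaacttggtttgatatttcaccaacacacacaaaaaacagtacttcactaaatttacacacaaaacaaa

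In the 500 bases before the start codon, AGGGG or CCCCT on either strand was found 3 times in HXK1, 3 times in GLK1 and 2 times in TDH1. TDH3 also had 2 matches, CDC19 and PDC1 had 1 each, and HXK2, PFK1, PFK2 and FBA1 had 0. Of all 6000 upstream windows of this length, 34.1% held at least 1 match, 8.13% at least 2 and 1.83% at least 3. The core CTTCC (or GGAAG), bound by Gcr1, was found in 66.1% of all windows and in 7 of the 10 members, with 3 matches in HXK1 and in CDC19 and none in HXK2, TDH3 and PDC1. Within only the 250 bases before the start codon, AGGGG or CCCCT was found 3 times in GLK1 and once each in TDH1, TDH3 and CDC19. HXK1, HXK2, PFK1, PFK2, FBA1 and PDC1 had 0 there, and 18.8% of all windows of 250 bases held at least 1. The HXK1 stretch shown therefore lies further upstream than those of GLK1 and TDH1. These letters are a description of the sequence, and binding was not measured.

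Ranked over the 15 conditions, each member had its own extremes. HXK1 and GLK1 were highest in spores and lowest in DMSO at 120 min, spanning 53.1-fold and 45.1-fold. HXK2 ran the other way, lowest in spores and highest in DMSO at 240 min, over 59.7-fold. TDH1 was highest with rapamycin at 240 min and lowest in DMSO at 120 min, over 36-fold. TDH3 and PDC1 were lowest with rapamycin at 60 min, over 11.2-fold and 24.5-fold. Of the 14 pairs of neighbours in such an order, 9 overlapped for HXK1, 9 for GLK1, 7 for HXK2, 12 for TDH1, 13 for TDH3 and 11 for PDC1, so most neighbouring conditions were not separated by their replicates.

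The genes whose profile was most like that of a member were found by the root mean square difference of log2 levels, relative to spores, over the 14 other conditions among 5353 genes. The profile of HXK1 was nearest to GPH1 (0.622) and STF2 (0.694), and that of HXK2 to FRS1 (0.511) and YBR238C (0.539). TDH1 was nearest to YLR031W (0.633) and UBP11 (0.744), and TDH3 to ERG24 (0.323) and POL30 (0.426). The conditions share the spore libraries as their baseline, so these distances are descriptions.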

How the data were processed

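RNA-seq counts per gene were deposited by the authors as whole-number counts, which are not normalized. Per the methods, reads were trimmed with Trimmomatic 0.33, aligned to an SK1 genome with HISAT2 and counted with HTSeq. Multi-mapping and overlapping genes can lower the counts of close paralogues. From the counts, CPM were computed with TMM factors over all 45 libraries. A separate model for the 6 libraries of every comparison (12 for an interaction) was fitted with edgeR 4.0.16 in R 4.3.3, with the quasi-likelihood test, genes above 1 CPM in at least 3 libraries, and Benjamini-Hochberg adjustment over all genes tested. Calls needed an adjusted p under 0.05 and a 2-fold difference or more. The SE is the log2 fold change divided by the square root of F. Ratios within a library were compared by exact two-sided permutation tests.

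Named genes are all 10 members, the 21 further pathway genes, 4 regulators and, for HXK1, HXK2, TDH1 and TDH3, the 2 nearest profiles each. Members, lists and tests were chosen with earlier results of these data known. Alternatives were DESeq2 1.42.0, library-size scaling, no low-count filter, no 2-fold minimum, a fit over all libraries, a replicate block and leaving out each library. Libraries of one group differed by more than counting noise. Gene names came from RefSeq (6008 of 6723 IDs matched, the rest holding 0.216% of counts). Positions and sequences are from the R64 reference of S288C, not from SK1.

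Replicate letters were taken to pair libraries where every correlation of same-letter deviations exceeded 0.1, which held for DMSO against spores and rapamycin against DMSO at 0, 10 and 30 min, and for rapamycin against spores at 0, 10 and 120 min. The reported tests did not use this pairing. A replicate block was fitted only as an alternative.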

Additional observations from a re-analysis of the deposited data

Results flagged for a closer look

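The size of the rapamycin effect differed between times by a test of the difference in 9 cases. All values here are differences of log2 fold changes (rapamycin over DMSO), later time minus earlier time, from edgeR's quasi-likelihood interaction test over 12 libraries.

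Between 120 and 360 min the difference was -6.02 for HXK1, -2.94 for GLK1, -3.12 for TDH1, -1.48 for TDH3 and -1.22 for PDC1. HXK1 alone of the 10 members was called higher with rapamycin at 120 min and lower at 360 min. Between 30 and 60 min the difference was -0.78 for CDC19 (adjusted p = 0.00861), 0.97 for GLK1 (adjusted p = 0.00636), -0.36 for PFK1 (adjusted p = 0.0329) and 0.84 for TDH1 (adjusted p = 0.0329), all under 2-fold.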

How the results depend on the processing

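Of 309 recomputed counts of members called, 287 stayed within 1.5 times the reported one. Of the fold changes of single members, 2804 kept their direction and side of the threshold, 28 crossed to pass it, 28 no longer passed and 0 reversed; all 128 recomputed isoform ratios stayed within the spread. Without the 2-fold minimum, DMSO against spores gave 9, 9 and 8 members at 10, 30 and 120 min, rapamycin against DMSO 5, 8 and 10 at 60, 120 and 240 min, rapamycin against spores 9, 9 and 7 at 10, 30 and 240 min, and the 60 against 30 min interaction 4. Scaling by library size alone gave 3 for DMSO against spores at 30 min, 2 for rapamycin against DMSO at 60 min and 3 for that interaction. This scaling shifted the all-gene median (log2) by 0.36, 0.30, -0.19, -0.41 and -0.28 for DMSO against spores at 10 to 240 min and by 0.32, 0.50 and 0.23 for rapamycin against DMSO at 60 to 240 min. Leaving out 1 library gave 2 to 5 members for DMSO against spores at 10 min, 0 to 1 for rapamycin against DMSO at 60 min and 0 to 3 for the interaction. With the replicate block the count for rapamycin against spores at 10 min was 2 rather than 3, since HXK1 went just under 2-fold (-0.99); it changed no other member count. Leaving out of the denominator the 10 genes of highest mean count, 4 of them members, gave a read share of 7.05% in DMSO at 240 min. The causes were not tested. With 3 libraries a group, no ratio test could pass 0.05.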

Other observations

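The paralogue EMI2, related in sequence to GLK1 (69.0% of coding bases shared), changed its rank against GLK1. The log2 ratio of EMI2 to GLK1 reads per kilobase was 0.37 ± 0.20 in DMSO at 360 min and -2.09 ± 0.16 in spores (SD, n = 3 each), and all 3 DMSO libraries were above 0 where all 3 spore libraries were below it.

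The alcohol dehydrogenase genes were split. ADH3, the mitochondrial enzyme, averaged 1109.6 CPM with rapamycin and 355 CPM with DMSO at 120 min, a log2 fold change of 1.66, and ADH5 had one of 1.59. The ratio of ADH2 to ADH1 was -5.26 ± 0.10 with rapamycin and -5.37 ± 0.07 with DMSO at 120 min, and these groups overlapped.

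The read share of the 10 members at 360 min with rapamycin was 3.21%, 4.90% and 4.88% in replicates A, B and C, and 5.80%, 7.51% and 6.23% with DMSO. Replicate A of rapamycin held 9274025 counted reads, within the range of the other libraries. Its counts over all genes were nevertheless far from those of B and C. The chi-square per degree of freedom between libraries was 185 for A and B, 167 for A and C and 5.39 for B and C. The highest value in any other group was 71.9, for B and C of rapamycin at 60 min. The cause was not tested.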
